A study of Mus musculus with 11 samples.

Results

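Chromatin regulators with known roles in oligodendrocyte differentiation were followed through 10 genes: Hdac1, Hdac2, Hdac3, Hdac11, Smarca4, Chd7, Chd8, Ezh2, Yy1 and Prmt5. Every probe set annotated to exactly 1 of these genes was taken, which gave 21 of the 45101 probe sets on the array and 10 of the 18194 genes that have a probe set of their own. A signal of at least 200 on at least 3 arrays was reached by 17 of the 21, and only those were tested, among 18568 tested probe sets in all. At least 1 probe set of each of the 10 genes was tested. The 4 that were not tested are 1 of 3 probe sets of Hdac2 and 3 of 4 of Chd8.

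RNA of cultured mouse cells was hybridised to 11 Affymetrix whole-genome mouse arrays, which read the 3′ end of transcripts. The first group, 3 arrays, held conditional knockout (CKO) oligodendrocytes of genotype MRF fl/fl; Olig2 wt/cre, where MRF is the older name of Myrf, the transcription factor that drives myelin gene expression. The second, 4 arrays, held control oligodendrocytes of littermates, MRF wt/fl; Olig2 wt/cre. Both genotypes thus carried Cre on 1 Olig2 allele, and the controls also carried 1 floxed MRF allele. Both were taken 4 days after PDGF-AA was withdrawn and triiodothyronine (T3, 40 ng/ml) was added. The third group, 4 arrays, held oligodendrocyte precursor cells (OPCs) kept for 6 days in PDGF, at 10 ng/ml of PDGF-AA in the series' design. Its arrays are titled as control with no further genotype given. The supplement B27 was at 2% in every group. All cells came from brains at postnatal day 7, by immunopanning on PDGFR-alpha after microglia were depleted. The labels do not say that replicates were separate animals or cultures, so p-values measure the spread between these arrays, which may be technical.

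As background, an OPC divides until it leaves the cell cycle and turns on myelin genes, and its chromatin is rebuilt on the way. Histone deacetylases (Hdac) remove acetyl groups and are needed for the switch, in part by silencing genes that hold the cell back. ATP-driven remodelers, Smarca4 of the BAF complex and Chd7 and Chd8, open enhancers for Olig2 and Sox10. Ezh2 writes the repressive mark H3K27me3, Yy1 recruits deacetylases to genes that block differentiation, and Prmt5 dimethylates histone arginines.

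The arrays were first checked against their labels. Myrf, the targeted gene, had signals of 2849, 1904 and 2223 on the CKO arrays, 7374, 6614, 7517 and 6215 on the control arrays, and 752, 6848, 1135 and 971 on the OPC arrays (probe set 1439506_at, whose place relative to the floxed exon was not examined). Its CKO minus control difference was −1.58 ± 0.58 (log2, SE) with limma adjusted p = 0.16 over all arrays, and adjusted p = 0.000288 from the oligodendrocyte arrays alone. On Myrf and the cell cycle genes, OPC replicate 2 stood apart from the other OPC arrays. Its Myrf signal was in the control oligodendrocyte range. Its mean log2 level of 13 cell cycle genes was 10.5, against 12.6 to 12.8 on the other 3. OPC replicates 1 and 4 had low 5′ to 3′ ratios of Gapdh, at 0.332 and 0.12, against 1.15 to 1.41 on the other 9 arrays. The 7 astrocyte genes averaged 13.2 to 13.4 (log2) on the CKO arrays and 12.4 to 13.0 on the control arrays, against 7.92 to 8.13 on the OPC arrays. Their summed signal ran from 75556 to 78658 on the CKO arrays, from 46049 to 64706 on the control arrays and from 5070 to 10491 on the OPC arrays. Gfap, the astrocyte intermediate filament, lay between 14658 and 17212 on all oligodendrocyte arrays and at 100.3 or below on the OPC arrays. The 7 oligodendrocyte genes averaged 9.68 to 11.03 on the CKO arrays and 12.8 to 13.4 on the control arrays. On OPC replicates 1 to 4 they averaged 8.35, 10.86, 10.65 and 8.59 in that order. OPC replicates 2 and 3 thus lay within the CKO range, and OPC replicates 1 and 4 below it. None of the 6 microglia genes exceeded 147.3 on any array. The 7 endothelium and pericyte genes summed to 3396 to 4755 on the CKO arrays, 632 to 1897 on the control arrays and 229 to 505 on the OPC arrays. Of these only Acta2 and Tagln were bright enough to be tested. They made up most of the CKO sum, at 1234 to 1698 and 1997 to 3110. The endothelial genes Pecam1, Cdh5 and Cldn5 never exceeded 42.7 on any array. Tagln was higher in CKO than in control oligodendrocytes (limma adjusted p = 0.0258), and Acta2 did not pass (limma adjusted p = 0.185). The 6 OPC genes averaged 11.2 to 11.4 on the CKO arrays, 10.3 to 10.8 on the control arrays and 12.1 to 12.8 on the OPC arrays. Sox6 and Vcan of these were higher in CKO than in control oligodendrocytes (limma adjusted p = 0.0487 and 0.0027). The 6 neuron genes averaged 6.2 to 6.5, 6.9 to 7.6 and 7.6 to 7.9 in the same order. The part of all these cell types in the results below was not tested. In such bulk samples fewer cells of a type and less RNA per cell cannot be told apart.

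Promoters are shown for Ezh2 and Hdac11 because these genes had the deepest fall and the rise in control oligodendrocytes relative to OPCs. Windows from 250 bases before to 50 after the start, from RefSeq (GRCm38.p6), were read for 7 of the 10 genes. Hdac1, Hdac3 and Chd7 were not among them. Capitals in the Ezh2 window, at chr6:47594981-47595280 on the minus strand, mark TTTGGCGC, a spelling of the E2F site found in many cell cycle promoters, and the Hdac11 window, at chr6:91156565-91156864 on the plus strand, has no capitals.
Ezh2: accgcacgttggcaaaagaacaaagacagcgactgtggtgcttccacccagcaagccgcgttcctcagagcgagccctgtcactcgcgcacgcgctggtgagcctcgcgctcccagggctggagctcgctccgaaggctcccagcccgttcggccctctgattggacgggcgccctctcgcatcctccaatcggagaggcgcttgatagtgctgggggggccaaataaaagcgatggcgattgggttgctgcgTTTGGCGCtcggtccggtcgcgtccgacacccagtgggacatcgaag
Hdac11: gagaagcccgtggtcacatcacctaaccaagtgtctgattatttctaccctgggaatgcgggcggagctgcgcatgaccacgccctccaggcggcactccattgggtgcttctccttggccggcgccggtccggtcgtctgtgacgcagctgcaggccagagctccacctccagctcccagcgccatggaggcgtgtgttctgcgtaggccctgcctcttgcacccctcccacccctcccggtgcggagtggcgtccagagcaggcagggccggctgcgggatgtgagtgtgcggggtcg
On either strand, TTTGGCGC occurred in 0.514% of all 32851 windows, and any of 4 spellings searched (TTTGGCGC, TTTCCCGC, TTTCGCGC and TTTGCCGC) in 2.26%. Among the 7 windows, Ezh2 was the only one to hold any of the 4. None of the 7 held AANATGGC, a spelling of the Yy1 site found in 6.05% of windows, or either of the Myrf spellings CTGGCAC and CTGGTAC, found together in 7.1%. The 7 windows were rich in G and C, from 58.0% for Prmt5 to 81.0% for Yy1, against a median of 52.7% over all windows. They held from 16 CpG dinucleotides for Prmt5 to 42 for Yy1, against a median of 7. These are matches of letters, and no binding was measured.

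Between control oligodendrocytes and OPCs most tested genes were called, as were most of the 10, and of these all but Hdac11 were lower. By the brightest probe set of each gene, Ezh2, Chd7, Hdac2, Smarca4, Prmt5 and Hdac1 were lower in control oligodendrocytes than in OPCs, Hdac11 was higher, and Hdac3, Chd8 and Yy1 did not pass the test (limma, adjusted p under 0.05 over all tested probe sets). These are 7 of 10 genes, against 52.9% of all 10069 genes read by their brightest tested probe set. Of the 17 probe sets, 10 fell and 1 rose, whereas 26.3% of all tested probe sets fell, 27% rose, and 53.3% were called in either direction. Their median difference was −0.74 (log2), against −0.01 over all tested probe sets. Control and OPC arrays did not overlap on 9 of the 17, against 43.7% of all tested. Without OPC replicate 2, 12 were called, against 60.8% of all tested, and likewise 12 without OPC replicates 1 and 4, against 43.3%. Between CKO and control oligodendrocytes none of the 17 passed in the same fit, where 5.48% of all tested probe sets did, 2.34% higher and 3.14% lower. At an unadjusted p under 0.05 only Hdac11 (1451229_at) did, 1 of 17 against 18.3% of all tested, and the median difference was 0.03 both for the 17 and for all tested. With the replicate number as a block, the 2 Hdac11 probe sets passed and the other 15 did not, while 20.1% of all tested probe sets passed. The blocked fit held only the 2 compared groups and the replicate numbers they share, so control replicate 4 and all OPC arrays were left out. From the CKO and control arrays alone, without a block, the same 2 probe sets passed, against 13.7% of all tested.

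**Figure D1:**
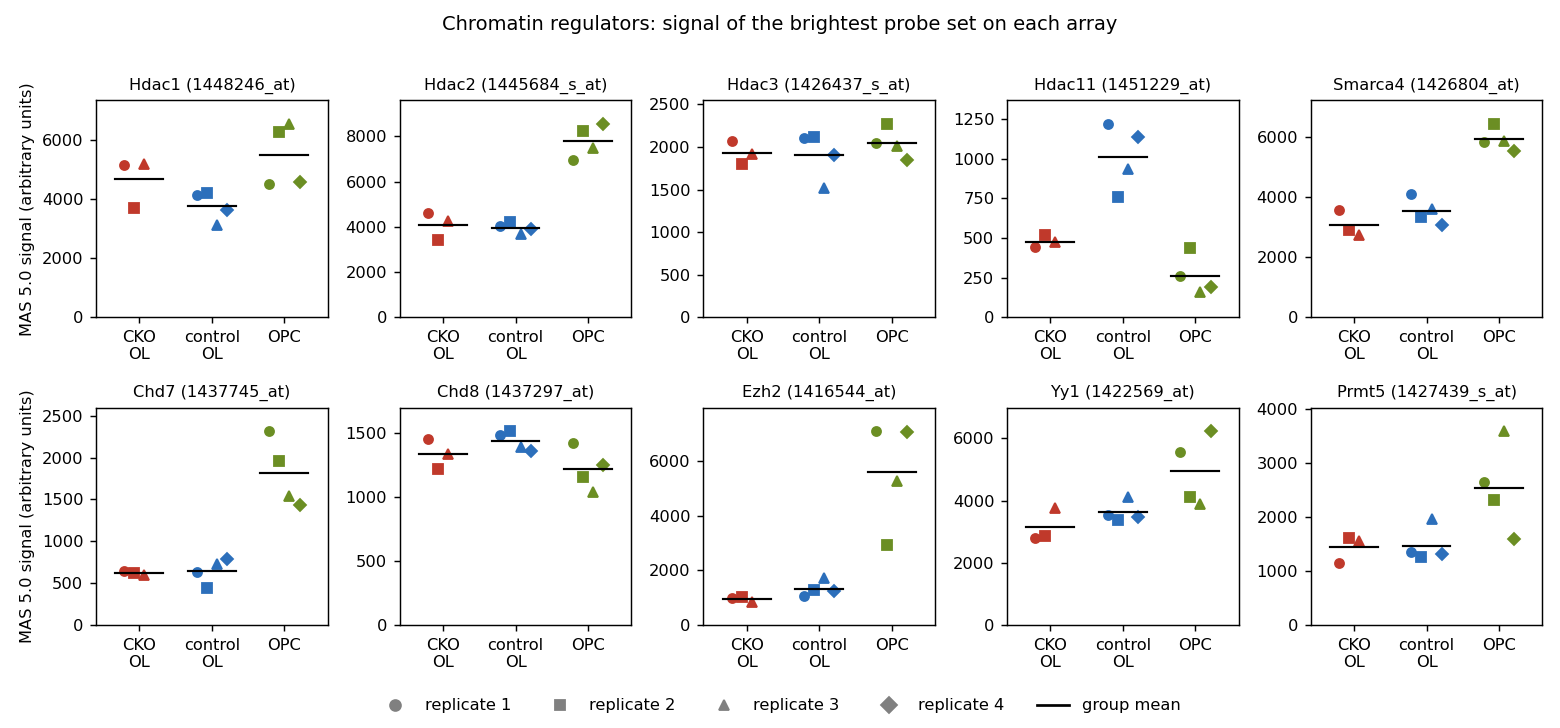
MAS 5.0 signal (linear axis from 0) of the brightest probe set of each of the 10 genes on every array, with CKO oligodendrocytes (CKO OL, n = 3), control oligodendrocytes (control OL, n = 4) and OPCs (n = 4) from left to right, lines at group means and shapes for replicate numbers. Ezh2 lies between 859 and 1720 on the oligodendrocyte arrays and between 2942 and 7104 on the OPC arrays, and Hdac11 is highest on the control arrays.

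Hdac1 and Hdac2, the class I deacetylases that can replace each other in many cells and whose joint loss blocks oligodendrocyte formation in mice, were both lower in control oligodendrocytes than in OPCs. Hdac1 had signals of 5131, 3697 and 5169 on the CKO arrays, 4117, 4213, 3112 and 3614 on the control arrays, and 4507, 6272, 6545 and 4582 on the OPC arrays. All control arrays lay below all OPC arrays, while the CKO values overlapped both. Control minus OPC was −0.53 ± 0.18 (log2, SE), adjusted p = 0.0296, a call lost with no filter, with the replicate block and without control replicate 3 or 4 or OPC replicate 2 or 3 (adjusted p up to 0.0797). CKO minus OPC was −0.23 ± 0.20, adjusted p = 0.356, and CKO minus control was 0.30 ± 0.20, adjusted p = 0.47.

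Hdac2 separated OPCs from both kinds of oligodendrocyte without overlap. Probe set 1445684_s_at had 4620, 3418 and 4255 in CKO oligodendrocytes, 4050, 4239, 3682 and 3922 in control oligodendrocytes, and 6970, 8225, 7481 and 8568 in OPCs. The control minus OPC difference was −0.97 ± 0.14, adjusted p = 0.000195, a 1.96-fold lower signal, and CKO minus OPC was −0.93 ± 0.15, adjusted p = 0.000428. A second probe set, 1449080_at, read 1594 to 2684 on the CKO arrays and 1615 to 1947 on the control arrays, against 3059 to 4553 on the OPC arrays. Its differences from OPCs were −1.11 ± 0.19 for control oligodendrocytes (adjusted p = 0.00065) and −0.82 ± 0.20 for CKO oligodendrocytes (adjusted p = 0.00632). The remaining, dim probe set, 1439704_at, was not tested. It lay between 47.4 and 88.6 in CKO oligodendrocytes, between 35.9 and 44.4 in control oligodendrocytes and between 81.1 and 179.6 in OPCs. CKO minus control did not pass on either tested probe set, at 0.03 ± 0.15 (adjusted p = 0.941) and 0.29 ± 0.20 (adjusted p = 0.5).

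Hdac3, the catalytic subunit of the NCoR and SMRT corepressor complexes, kept a narrow range over all 11 arrays. It had 2073, 1804 and 1922 in CKO oligodendrocytes, 2104, 2122, 1520 and 1900 in control oligodendrocytes, and 2049, 2275, 2016 and 1844 in OPCs. The 3 groups overlapped. Control minus OPC was −0.11 ± 0.15 (adjusted p = 0.582) and CKO minus control was 0.03 ± 0.17.

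Hdac11, the only class IV deacetylase, ran the other way and was brightest in control oligodendrocytes. Probe set 1451229_at had 442, 517 and 475 in CKO oligodendrocytes, 1222, 756, 936 and 1137 in control oligodendrocytes, and 262, 436, 157 and 194 in OPCs. Every control array lay above every CKO array, and every CKO array above every OPC array, with the nearest pair, 442 in CKO replicate 1 and 436 in OPC replicate 2, almost level. Control minus OPC was 1.96 ± 0.28, adjusted p = 0.000209, a 3.89-fold higher signal that passed in every alternative run. CKO minus OPC was 0.92 ± 0.30, adjusted p = 0.0235, a call lost in 8 of 21 alternatives, among them without CKO replicate 2 or 3 or OPC replicate 3 or 4 (adjusted p up to 0.111).

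The CKO minus control difference of Hdac11 was −1.04 ± 0.30, a 2.05-fold lower signal with adjusted p = 0.0716, which did not pass. With the replicate number as a block, which left out control replicate 4 and the OPC arrays, it was −0.98 with adjusted p = 0.0198. It passed from the 2 oligodendrocyte groups alone without a block as well, and without OPC replicate 2 the adjusted p was 0.0122. Over 21 alternatives it lay between −1.17 and −0.94, with adjusted p from 0.007 to 0.219. Probe set 1454803_a_at had 228, 241 and 361 in CKO oligodendrocytes, 519, 403, 460 and 847 in control oligodendrocytes, and 710, 271, 110 and 1506 in OPCs. Here the oligodendrocyte groups again did not overlap, but the OPC arrays spread across both, with the arrays of low 5′ to 3′ ratio, replicates 1 and 4, at the top. Its CKO minus control difference was −0.94 ± 0.66 (adjusted p = 0.502). With the replicate block, which left out control replicate 4 at 847, it was −0.73 with adjusted p = 0.0481. Control minus OPC was 0.30 ± 0.61 (adjusted p = 0.695), and 1.53 (adjusted p = 0.00997) without OPC replicates 1 and 4.

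**Figure D2:**
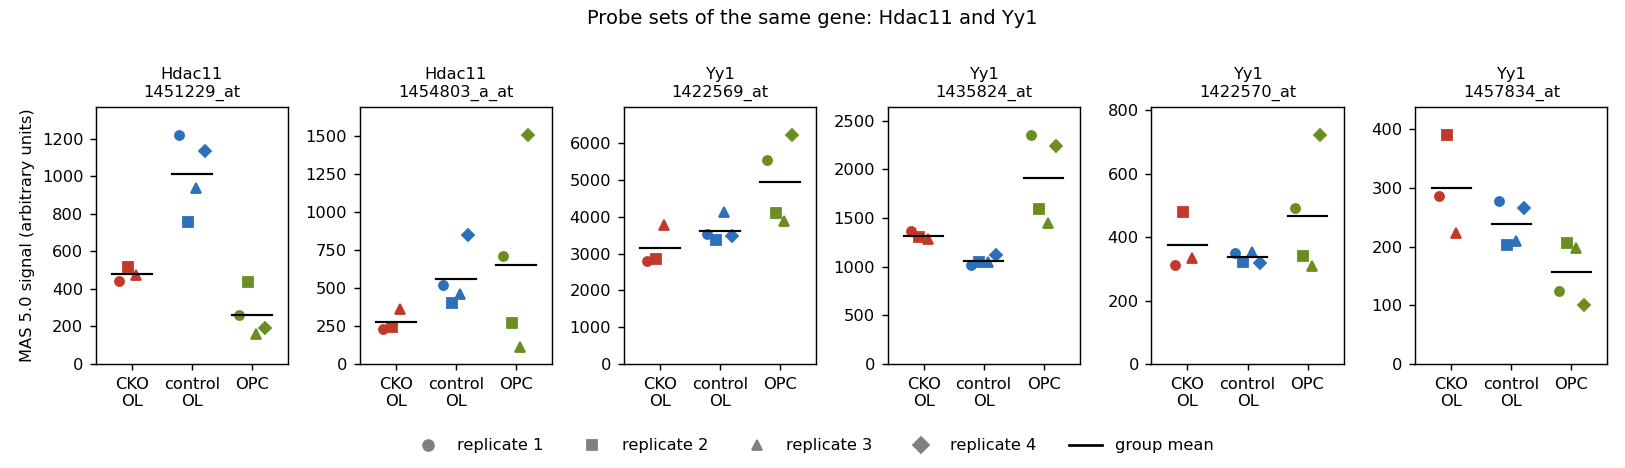
MAS 5.0 signal (linear axis from 0) of the 2 tested probe sets of Hdac11 and the 4 of Yy1 on every array, in CKO oligodendrocytes (CKO OL, n = 3), control oligodendrocytes (control OL, n = 4) and OPCs (n = 4), with a line at each group mean and a shape for each replicate number. OPC replicates 1 and 4 are the highest OPC arrays on Hdac11 1454803_a_at (710 and 1506) and the lowest on Yy1 1457834_at (124 and 101).

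Smarca4 (Brg1), the ATPase of the BAF complex that Olig2 recruits to enhancers at the onset of differentiation, was lower in both oligodendrocyte groups than in OPCs. Probe set 1426804_at had 3580, 2916 and 2738 in CKO oligodendrocytes, 4120, 3348, 3624 and 3089 in control oligodendrocytes, and 5843, 6459, 5871 and 5542 in OPCs. OPC values were all above the others. Relative to OPCs, the difference was −0.75 ± 0.14 in control oligodendrocytes (adjusted p = 0.00134) and −0.95 ± 0.15 in CKO oligodendrocytes (adjusted p = 0.00052), and CKO minus control was −0.20 ± 0.15. The second probe set, 1426805_at, fell further, by 1.40 ± 0.37 (log2, adjusted p = 0.00816) in control oligodendrocytes and by 1.29 ± 0.40 (adjusted p = 0.0192) in CKO oligodendrocytes, although OPC replicate 4, at 1012, lay within the oligodendrocyte values of 456 to 1110.

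Chd7, a remodeler that works with Sox10 at the start of myelination, had 646, 622 and 592 in CKO oligodendrocytes, 630, 436, 724 and 785 in control oligodendrocytes, and 2316, 1958, 1547 and 1431 in OPCs (1437745_at). The oligodendrocyte groups overlapped and both lay below all OPC arrays. Control minus OPC was −1.48 ± 0.22, adjusted p = 0.000254, a 2.79-fold lower signal, and CKO minus OPC was −1.5 ± 0.23, adjusted p = 0.0004. Probe set 1448026_at fell as well, by 0.91 ± 0.24 in control oligodendrocytes (adjusted p = 0.0078) and by 0.71 ± 0.26 in CKO oligodendrocytes (adjusted p = 0.0361). The CKO minus OPC call was lost in 7 of 20 alternatives, with no filter, from the 2 compared groups alone, with the replicate block and without CKO replicate 1 or 3 or OPC replicate 2 or 3 (adjusted p up to 0.163). CKO minus control was −0.02 ± 0.23 on the first probe set and 0.19 ± 0.26 on the second.

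Chd8, the related remodeler that acts upstream of Chd7 in the mouse lineage, was nearly level. Its tested probe set, 1437297_at, had 1453, 1213 and 1334 in CKO oligodendrocytes, 1479, 1511, 1387 and 1358 in control oligodendrocytes, and 1416, 1155, 1033 and 1247 in OPCs. All groups overlapped, and the differences were 0.25 ± 0.15 for control minus OPC (adjusted p = 0.182) and −0.11 ± 0.16 for CKO minus control. Of the 3 untested probe sets, 1457712_at lay between 41.3 and 93.6 in CKO oligodendrocytes, between 22.6 and 83.2 in control oligodendrocytes and between 128.5 and 229.5 in OPCs, and the other 2 stayed at or below 90.5 on every array.

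Ezh2, the H3K27 methyltransferase of Polycomb repressive complex 2, showed the deepest fall of the 10 genes. It had 992, 1011 and 859 in CKO oligodendrocytes, 1063, 1294, 1720 and 1239 in control oligodendrocytes, and 7104, 2942, 5293 and 7065 in OPCs. OPC replicate 2 was the lowest OPC array and control replicate 3 the highest control array. Control minus OPC was −2.0 ± 0.27, adjusted p = 0.000143, a 4.0-fold lower signal, and CKO minus OPC was −2.45 ± 0.29, adjusted p = 6.97e-05, a 5.48-fold lower signal. The CKO arrays lay below all control arrays, and the difference of −0.45 ± 0.29 did not pass (adjusted p = 0.455). CKO and control arrays did not overlap on 4 of the 17 probe sets (Ezh2, both of Hdac11 and Yy1 1435824_at), against 29.1% of all tested probe sets.

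**Figure D3:**
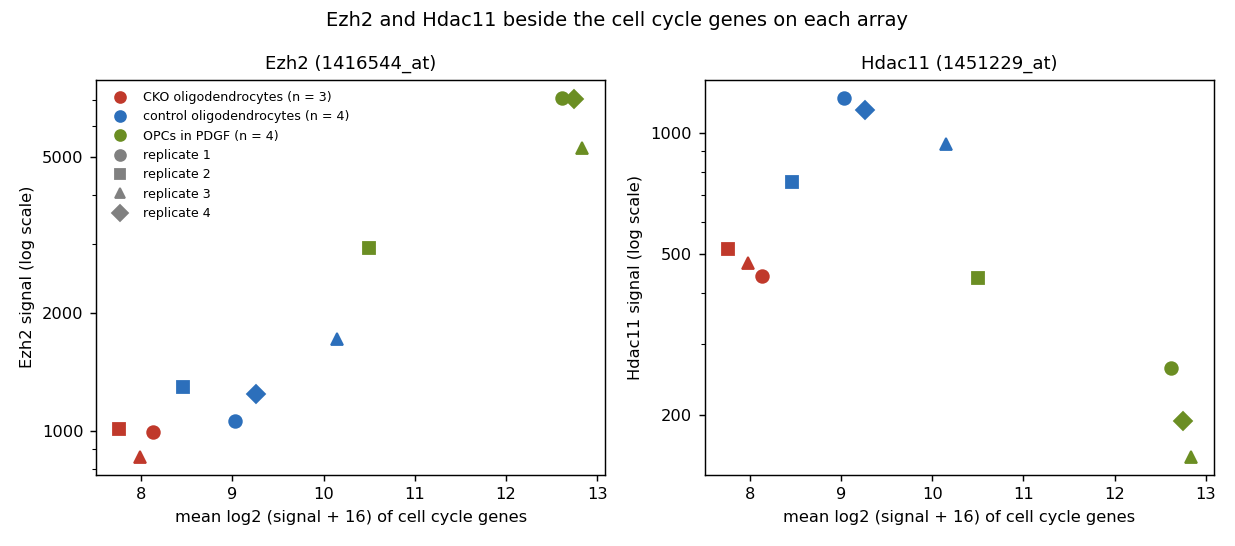
Ezh2 (left) and Hdac11 1451229_at (right) signal on a log axis against the mean log2 (signal + 16) of 13 cell cycle genes on the 11 arrays, coloured by group (CKO oligodendrocytes, control oligodendrocytes, OPCs) and shaped by replicate number. OPC replicate 2 and control replicate 3 lie between the other OPC and the other oligodendrocyte arrays on the x axis, at 10.5 and 10.1.

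The 13 cell cycle genes averaged 8.13, 7.76 and 7.98 (log2) in CKO oligodendrocytes, 9.03, 8.46, 10.1 and 9.26 in control oligodendrocytes, and 12.6, 10.5, 12.8 and 12.7 in OPCs. Ezh2 kept their order across the groups and only in part within them. On both measures OPC replicate 2 was the lowest OPC array and control replicate 3 the highest control array. CKO replicate 2 had the lowest cell cycle level but the highest Ezh2 signal of the CKO arrays. OPC replicate 3 had the highest level but less Ezh2 than OPC replicates 1 and 4. By contrast, Hdac11 was highest in control oligodendrocytes and did not keep the order across groups. All 13 cell cycle genes were lower in control oligodendrocytes than in OPCs, and their part in the Ezh2 values was not tested.

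Yy1, a zinc finger factor that recruits deacetylases and is needed for OPCs to leave the cycle in mice, gave 4 tested probe sets that disagreed. The brightest, 1422569_at, had 2812, 2863 and 3772 in CKO oligodendrocytes, 3543, 3369, 4132 and 3475 in control oligodendrocytes, and 5553, 4113, 3881 and 6235 in OPCs. The control range overlapped the OPC range, and control minus OPC did not pass at −0.42 ± 0.18 (adjusted p = 0.0685), while CKO minus OPC did at −0.63 ± 0.20 (adjusted p = 0.0187). CKO minus control was −0.21 ± 0.20 and did not pass.

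The second Yy1 probe set, 1435824_at, had 1367, 1301 and 1285 in CKO oligodendrocytes, 1015, 1050, 1047 and 1123 in control oligodendrocytes, and 2355, 1592, 1450 and 2235 in OPCs, with no overlap between any groups. It fell in control oligodendrocytes by 0.81 ± 0.18 relative to OPCs (adjusted p = 0.00295) and in CKO oligodendrocytes by 0.50 ± 0.19 (adjusted p = 0.0473), and CKO minus control was 0.31 ± 0.19, which did not pass. Probe set 1422570_at passed nowhere, at −0.38 ± 0.26 for control minus OPC (adjusted p = 0.232). The dim probe set 1457834_at ran the other way, with 287, 390 and 223 in CKO oligodendrocytes, 277, 202, 210 and 266 in control oligodendrocytes, and 124, 206, 197 and 101 in OPCs. It rose in CKO oligodendrocytes relative to OPCs by 0.89 ± 0.29 (adjusted p = 0.0233), and control minus OPC was 0.60 ± 0.27 (adjusted p = 0.0763). On all 4 Yy1 probe sets, OPC replicates 1 and 4, the arrays with low 5′ to 3′ ratios, were the farthest OPC arrays from the oligodendrocytes. The CKO minus OPC calls of Yy1 were all lost without these 2 arrays, from the 2 compared groups alone, with the replicate block, and without CKO replicate 1 or 2. Over all alternatives, 5 of 21 ended the call of 1422569_at, 14 of 20 that of 1435824_at and 7 of 20 that of 1457834_at, with adjusted p up to 0.165, 0.282 and 0.153 in that order. Control minus OPC passed on 1422569_at without OPC replicate 2 or 3 (adjusted p down to 0.0325) and on 1457834_at without OPC replicate 2 (adjusted p = 0.0324).

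Prmt5, the main enzyme of symmetric arginine dimethylation, had 1157, 1613 and 1559 in CKO oligodendrocytes, 1350, 1262, 1956 and 1313 in control oligodendrocytes, and 2638, 2321, 3589 and 1587 in OPCs. OPC replicate 4 lay among the oligodendrocyte arrays. Its control minus OPC difference was −0.74 ± 0.25, adjusted p = 0.0251, a call lost without control replicate 1, 2 or 4 or OPC replicate 1 or 3 (adjusted p up to 0.0684). CKO minus OPC was −0.76 ± 0.27, adjusted p = 0.0331, a call lost from the 2 compared groups alone and without any 1 CKO replicate or OPC replicate 1 or 3 (adjusted p up to 0.13). CKO minus control was −0.02 ± 0.27.

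**Figure D4:**
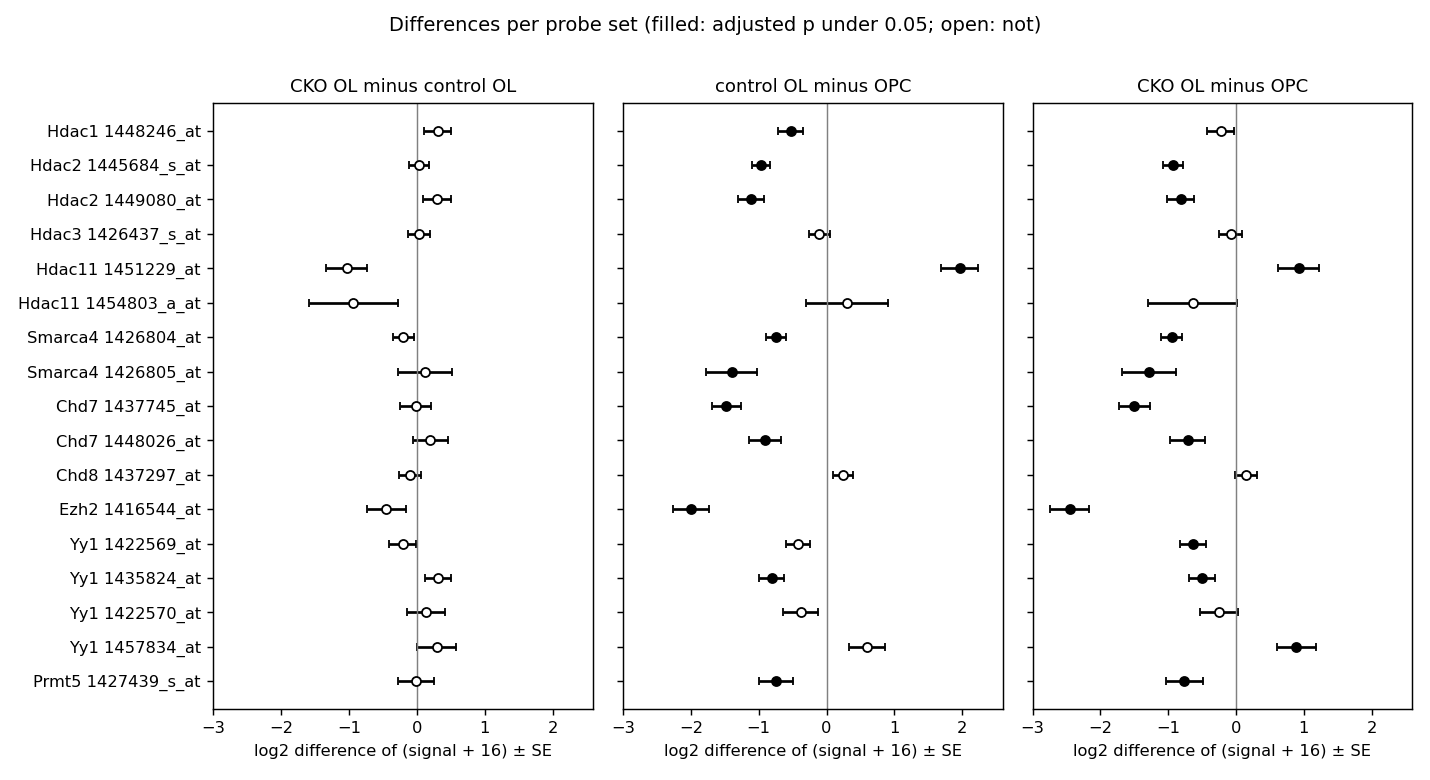
Log2 differences of (signal + 16) with standard errors for the 17 tested probe sets, as CKO minus control oligodendrocytes (OL), control oligodendrocytes minus OPCs and CKO oligodendrocytes minus OPCs from left to right, filled where adjusted p was under 0.05. Ezh2 reaches −2.0 and −2.45 against OPCs, Hdac11 1451229_at stands at 1.96 and 0.92, and the CKO minus control differences lie between −0.45 and 0.31 except for Hdac11.

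The comparison of CKO oligodendrocytes with OPCs shares its OPC arrays with the comparison above. In it 12 of the 17 probe sets were called, 2 higher and 10 lower, against 26.4% higher, 24.1% lower and 50.6% either way among all tested probe sets. The median was −0.64 (log2), against 0.04 over all tested. CKO and OPC arrays did not overlap on 9 of the 17, against 49.6% of all tested. Calls of Ezh2, the brighter probe sets of Smarca4 and Chd7, and both tested probe sets of Hdac2 held in every alternative run. The CKO minus OPC call of Smarca4 1426805_at was lost without CKO replicate 1 (adjusted p = 0.0837), and the losses of Chd7 1448026_at, Yy1, Hdac11 and Prmt5 are given above. Without OPC replicates 1 and 4 the count was 8, against 41.9% of all tested. It was 6 from the 2 compared groups alone, against 40.6%, and 6 without CKO replicate 1, against 40.3%.

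Some genes followed single members closely over the 11 arrays, which share the group differences. Polr1c, Prkg2 and Msh6 were most like Ezh2, with Pearson's r of 0.994, 0.992 and 0.992 (log2 signal, brightest probe sets). Ube4b (0.986), Ctcf (0.976) and Usp34 (0.976) were most like Hdac2, and Cbll1 (0.978), Mettl23 (0.971) and Tro (0.97) most like Chd7. Gm19439, Ly6g6d and Slc15a4 followed Hdac11, at 0.964, 0.964 and 0.962, and Zfp638, Arhgap33 and Insr followed Smarca4, at 0.965, 0.963 and 0.962. Yif1a (0.988), Ndufc1 (0.987) and Sde2 (0.973) were nearest to Yy1, and Emg1 (0.964), Psmg1 (0.958) and Tti1 (0.947) to Prmt5. The neighbours of the other 3 were looser, with Nedd4 at 0.923 for Hdac1, Nek9 at 0.895 for Chd8 and Med12l at 0.872 for Hdac3. Each was picked as a highest value among 10069 genes.

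Genes that form complexes with the 10, or belong to the same families, were read from lists by the brightest probe set of each gene. Of 110 such genes tested, 9 were higher and 46 lower in control oligodendrocytes than in OPCs, or 8.18% and 41.8%, against 23.9% and 29.0% of all 10069 genes. Their median difference was −0.42 (log2), against −0.09 over all genes. Without OPC replicate 2, 11 were higher and 52 lower, against 27.3% and 32.3% of all genes, and without OPC replicates 1 and 4, 9 and 43, against 19.8% and 22.6%. The astrocyte and cell cycle levels given above moved with this comparison, and their part in these counts was not tested.

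Among the 21 tested Polycomb and H3K27 demethylase genes, which include the partners of Ezh2, 9 fell and 3 rose in control oligodendrocytes relative to OPCs (median −0.29). Over all genes 29.0% fell and 23.9% rose. Suz12, the subunit that keeps Ezh2 active, had 720.6 ± 155 in control oligodendrocytes and 3107 ± 640 in OPCs (SD, n = 4 each), a log2 difference of −2.08 (adjusted p = 1.9e-05). Eed, which reads H3K27me3 for the complex, fell by 1.03 (adjusted p = 0.0026), and Mtf2, an accessory subunit, by 1.34 (adjusted p = 0.000705). Kdm6b, a demethylase that removes the same mark, fell by 2.08 (adjusted p = 7.39e-05). Ezh1, the paralog of Ezh2, did not pass, at 0.26 (adjusted p = 0.355). Cbx6, Phc3 and Phc1 of the PRC1 family rose, by 0.82, 0.77 and 0.61.

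BAF and PBAF subunits, the partners of Smarca4, fell in 11 of 22 tested genes and rose in 0 (median −0.44), against 29.0% and 23.9% of all genes. Dpf1, a subunit of the neuronal form of BAF, fell by 1.84 (adjusted p = 0.00143), Smarcc1, a core scaffold, by 1.72 (adjusted p = 4.42e-05), and Actl6a, the actin-like subunit of progenitors, by 1.49 (adjusted p = 0.0056). Smarca2, the alternative ATPase, did not pass, at −0.48 (adjusted p = 0.105). Of 14 tested genes among the other CHD remodelers and the KMT2 methyltransferase core, 7 fell and 2 rose (median −0.59), against the same shares. Wdr5, a scaffold of the KMT2 complexes, had 532.5 ± 18.4 in control oligodendrocytes and 1729 ± 456 in OPCs (SD, n = 4 each), a difference of −1.63 (adjusted p = 7.45e-05). Chd1 fell by 1.34 (adjusted p = 0.000684), and the 2 that rose were Chd3 and Chd4, remodelers of the NuRD complex, by 1.49 (adjusted p = 0.000597) and 0.94 (adjusted p = 0.00196).

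Class I deacetylase complexes showed 9 lower genes and 1 higher gene of 20 tested (median −0.49), against 29.0% and 23.9% of all genes. Rbbp7, a histone chaperone of these complexes, fell by 1.26 (adjusted p = 0.00335), and the scaffolds Sin3a and Sin3b fell by 1.06 (adjusted p = 0.00109) and 0.99 (adjusted p = 0.00279). Mbd2, which brings NuRD to methylated DNA, rose by 0.90 (adjusted p = 0.00545). Of 12 other deacetylases tested, 3 were higher and 4 lower (median 0.47), near the 23.9% and 29.0% of all genes. Without OPC replicates 1 and 4 the counts were 4 and 1, against 19.8% and 22.6% of all genes. Sirt2, a tubulin deacetylase abundant in myelin, had 16031 ± 768 in control oligodendrocytes and 5763 ± 6960 in OPCs (SD, n = 4 each), a difference of 2.18 (adjusted p = 0.00795). The wide OPC spread of Sirt2 ran from 1411 to 16091. Hdac8, which was dim, rose by 1.04 (adjusted p = 0.0268), though its control arrays (171.0 to 254.1) and OPC arrays (43.2 to 189.6) overlapped. Sirt1 fell by 1.03 (adjusted p = 0.000842).

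Of 11 tested INO80 subunits and Yy1 partners, 3 fell and 0 rose (median −0.41), a lower share near the 29.0% of all genes. They were the helicases Ruvbl1, by 1.11 (adjusted p = 0.00049), and Ruvbl2, by 0.57 (adjusted p = 0.0091), and Ino80 itself, by 0.59 (adjusted p = 0.0146). Without OPC replicate 2 the list had 5 lower and 2 higher genes. Of 10 tested arginine methyltransferases and Prmt5 partners, 3 fell and 0 rose (median −0.44), again near the share of all genes. Without OPC replicate 2 the lower count was 7. Carm1, which makes asymmetric dimethylarginine, fell by 1.17 (adjusted p = 0.000623), Coprs, which directs Prmt5 to histones, by 1.13 (adjusted p = 0.000284), and Clns1a, which presents spliceosomal proteins to Prmt5, by 0.56 (adjusted p = 0.0256). Wdr77, the obligate partner of Prmt5, did not pass, at −0.46 (adjusted p = 0.0559).

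**Figure D5:**
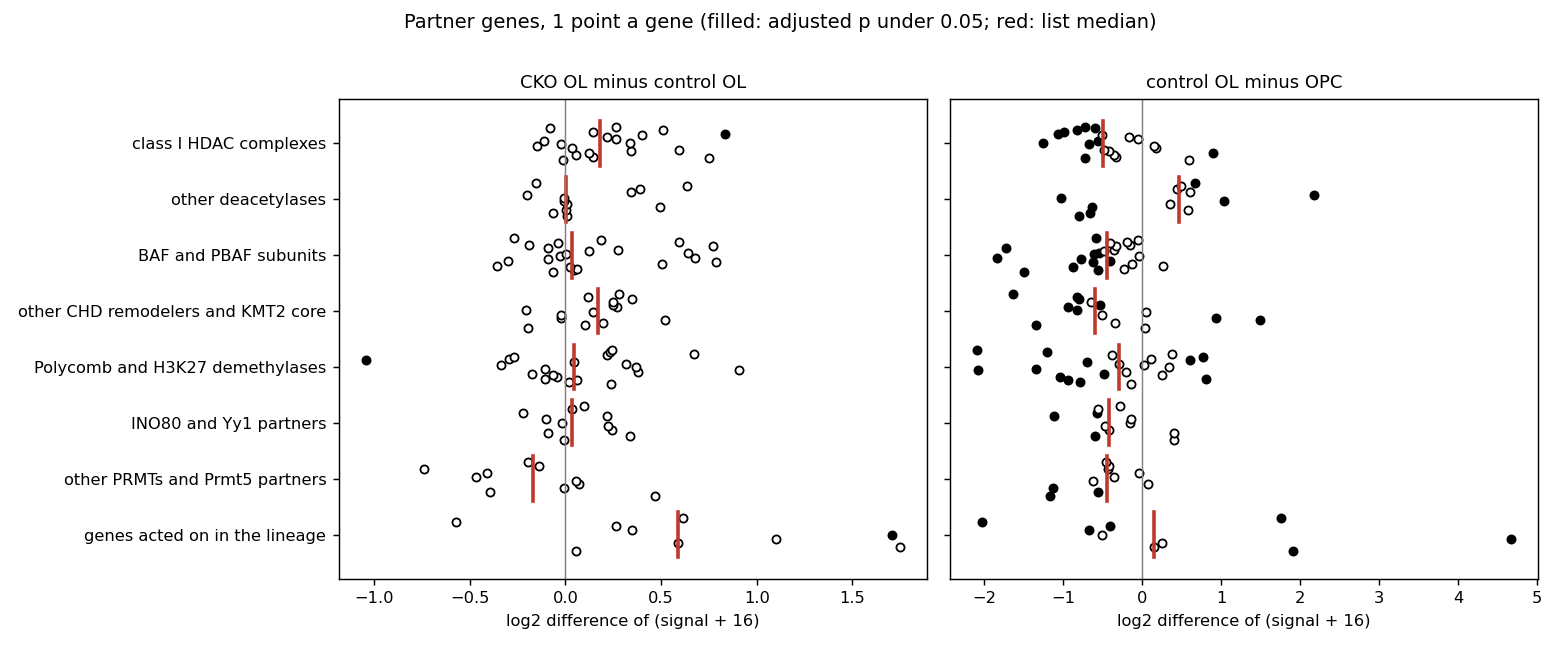
Log2 differences of (signal + 16) of the tested genes of each partner list, 1 point per gene by its brightest probe set, as CKO minus control oligodendrocytes (OL, left) and control oligodendrocytes minus OPCs (right). Filled points passed adjusted p under 0.05 and red lines are list medians, and the BAF list has 11 filled points below zero and 0 above on the right.

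Between CKO and control oligodendrocytes the same 110 genes gave 1 higher and 1 lower call, 0.909% each, against 2.82% higher and 3.44% lower over all genes. Sin3a had 741.1 ± 150 in CKO oligodendrocytes (SD, n = 3) and 409.3 ± 87.3 in control oligodendrocytes (SD, n = 4), a 1.78-fold higher signal (log2 difference 0.84, adjusted p = 0.041). Phc1, a PRC1 subunit, had 1662 ± 379 in CKO oligodendrocytes (SD, n = 3) and 3419 ± 535 in control oligodendrocytes (SD, n = 4), a 2.06-fold lower signal (log2 difference −1.04, adjusted p = 0.0191). With the replicate block 11 were higher and 3 lower, or 10.0% and 2.73%, against 12.4% and 8.94% over all genes. The 11 were Sin3a, Gatad2b, Suds3, Sirt5, Smarcc2, Smarcd3, Dpf1, Phf10, Bcl7c, Chd3 and Kdm6b, and the 3 were Phc1, Prmt7 and Clns1a. From the CKO and control arrays alone, without a block, 6 were higher and 2 lower. These are 5.45% and 1.82%, against 7.59% and 6.99% over all genes. Suds3, Smarcd3, Dpf1, Bcl7c, Chd3 and Clns1a did not pass there. In the blocked fit 5 of the 7 astrocyte genes were higher and 10 of the 13 cell cycle genes lower in CKO oligodendrocytes. The part of these astrocyte and cell cycle genes in the calls was not tested. Between CKO oligodendrocytes and OPCs, 12 of the 110 were higher and 39 lower, or 10.9% and 35.5%, against 23.3% and 26.3% over all genes. With the replicate block 4 were higher and 19 lower, or 3.64% and 17.3%, against 14.4% and 13.9%.

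Genes on which these regulators are reported to act in the lineage were read from a list of 11, of which 9 were tested. In control oligodendrocytes against OPCs, 3 rose and 3 fell, against 23.9% and 29.0% of all genes. Sox11, a factor of immature cells, fell by 2.02 (adjusted p = 0.000355), Olig2 by 0.67 (adjusted p = 0.0244) and Sox10 by 0.41 (adjusted p = 0.0249). The control oligodendrocytes carried Cre on 1 Olig2 allele and the OPC genotype is not given. Genotype and culture stage therefore cannot be told apart for Olig2. Id4, an inhibitor of differentiation, rose, with 3789 ± 1800 in control oligodendrocytes and 118.4 ± 30.7 in OPCs (SD, n = 4 each; adjusted p = 5.33e-06), and astrocyte genes rose in the same comparison. Creb3l2 rose by 1.91 (adjusted p = 0.00552) and Tcf7l2, a Wnt pathway factor of newly formed oligodendrocytes, by 1.75 (adjusted p = 0.0249). Control and OPC arrays overlapped for Sox10 and Tcf7l2. In CKO against control oligodendrocytes 1 of the 9 passed, against 2.82% higher and 3.44% lower of all genes. This was Nkx2-2, a homeodomain factor that recruits deacetylases, which had 9644 ± 662 in CKO oligodendrocytes (SD, n = 3) and 3033 ± 797 in control oligodendrocytes (SD, n = 4), a 3.26-fold higher signal (log2 difference 1.71, adjusted p = 0.0473). With the replicate block Id2, Id4 and Olig2 passed as well, each higher in CKO oligodendrocytes. In that fit 12.4% of all genes were called higher and 8.94% lower. From the CKO and control arrays alone, without a block, Id2, Id4 and Olig2 did not pass (limma adjusted p = 0.0707, 0.126 and 0.0586).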

How the data were processed

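Signals of 11 arrays were read as deposited. The authors processed the scans in GCOS 1.3 and computed intensity values with MAS 5.0, scaled per array to a target of 500, per the labels and the submitters' processing notes; the trimmed mean was 500.0 on each array. Probe sets were named from the platform annotation, updated through Entrez identifiers (34754 of 34958 with 1 gene matched). Hdac1 also has an annotated pseudogene, and cross-matching of probes was not examined.

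From these, log2(signal + 16) was tested for probe sets reaching 200 on 3 or more arrays, array controls left out. limma 3.58.1 in R 4.3.3 (lmFit, eBayes with an intensity trend, all 11 arrays, a mean per group) gave two-sided p-values, adjusted by Benjamini-Hochberg over 18568 probe sets. Fold changes are on the log2(signal + 16) scale, which understates changes of dim probe sets. Signals of different probe sets were not compared, and the number of arrays limits the precision. The script was tested on simulated data.

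Members and lists were chosen with earlier results of these data known. Genes were named by a rule: all members, up to 3 genes called per list, direction and comparison, and the 3 most correlated genes per member. Eed, Ezh1, Smarca2 and Wdr77 were added after their values were seen. So were genes that passed with the replicate block but not in the fit over all arrays. Labels number replicates alike in all groups. Deviations of same-numbered CKO and control arrays correlated at 0.228, 0.238 and 0.238, and all being over 0.1 was taken to pair them. Other numbers were as high (CKO 1 with control 2 at 0.214, CKO 2 with control 1 at 0.166, CKO 3 with control 4 at 0.362) or negative (−0.389 to −0.133), so the numbers do not stand out by this measure. Alternatives were the pseudocount, the filter, quantile normalization, the 2 compared groups alone, the block, no intensity trend, 1 probe set per gene, and arrays left out. The block was fitted on the 2 compared groups and their shared replicate numbers, so comparisons with CKO arrays lost replicate 4 of the other group. Some list alternatives were chosen after seeing the data.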

Additional observations from a re-analysis of the deposited data

Results flagged for a closer look

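Prmt5 on control replicate 3 was the only value, among 34 groups of 4 arrays examined for the 17 tested probe sets, that lay far from the rest of its group. Its signal was 1956, against 1262 to 1350 on the other 3 control arrays, a gap of 0.846 of the group's range. Chance alone marks about 1 in 20 such groups. The same array had the highest Ezh2 signal (1720) and the highest cell cycle level (10.1) of the control arrays. Without it the Prmt5 control minus OPC difference still passed.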

How the results depend on the processing

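In control oligodendrocytes against OPCs, Ezh2, both tested probe sets of Smarca4, Chd7 and Hdac2, Yy1 1435824_at and Hdac11 1451229_at passed in every alternative run for them. Over the counts, 11 of 17 probe sets became 7 of 10, and 9899 of all became 5433, with 1 probe set per gene, where fewer are tested; leaving out 1 array gave 9 to 12 and 8198 to 11293. For CKO oligodendrocytes against OPCs, 12 became 6 from the 2 compared groups, 7 with the replicate block and 7 with 1 probe set per gene, and 9388 of all became 5498 with the block and 5098 with 1 probe set per gene; leaving out 1 array gave 6 to 11 and 6990 to 10985. For CKO against control oligodendrocytes, 0 became 1 under quantile normalization, 2 from the 2 compared groups and 2 with the replicate block, and 1018 of all became 2542 from the 2 groups, 3733 with the block and 1746 without OPC replicates 1 and 4; leaving out 1 array gave 0 to 1 and 512 to 1746, the highest without OPC replicate 2. The block also ended the control minus OPC call of Hdac1 and the CKO minus OPC calls of Hdac11 1451229_at, Chd7 1448026_at and Yy1 1422569_at, 1435824_at and 1457834_at. CKO minus control for Chd7 1437745_at turned sign without CKO replicate 3 or control replicate 3 or 4 (−0.19 to 0.082 over arrays left out singly). With the block, which also leaves out control replicate 4, it was 0.082. Among the lists, in control oligodendrocytes against OPCs, the block left 7 lower BAF genes, 4 lower CHD and KMT2 genes, 1 lower gene among those the regulators are reported to act on, 2 lower arginine methyltransferase genes, and 2 higher and 1 lower of the other deacetylases. OPC numbers did not pair with the oligodendrocyte arrays: same-numbered deviations correlated at −0.143, 0.176, 0.071 and 0.091 with control and at −0.103, 0.102 and −0.104 with CKO arrays. Other signs of uncalled differences turned when 1 array was left out: CKO minus control ran from −0.050 to 0.25 for Yy1 1422570_at, −0.079 to 0.080 for Hdac3, −0.14 to 0.34 for Smarca4 1426805_at, −0.11 to 0.13 for Prmt5, −0.057 to 0.16 for Hdac2 1445684_s_at and −0.050 to 0.42 for Chd7 1448026_at, and control minus OPC from −0.31 to 0.89 for Hdac11 1454803_a_at. Without OPC replicates 1 and 4, control minus OPC was 0.048 and CKO minus OPC 0.18 for Yy1 1422570_at, and CKO minus OPC was 0.59 for Hdac11 1454803_a_at. The cause of these changes was not tested. The median of all probe sets moved by less than 0.1 (log2) under quantile normalization. Dim probe sets limit what could be seen: the 4 untested ones never reached 200 on 3 arrays.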
